A study of Mus musculus with 9 samples.

Results

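The miRNAs described here are 6 mature strands of 4 miRNAs with roles in metabolism: mmu-miR-33-5p, mmu-miR-33-3p, mmu-miR-378a-3p, mmu-miR-378a-5p, mmu-miR-103-3p and mmu-miR-107-3p, named below without the mouse prefix. They were chosen by name, and all 6 were found among the 946 rows of a table of mature mouse miRNAs. Small RNA was sequenced from livers of wild-type C57 BL6 mice aged 8 weeks, in 3 groups of 3 libraries. Control mice received saline. APAP mice received 500 mg/kg acetaminophen (APAP), a painkiller that injures the liver at high dose, by intraperitoneal injection. The dmPGE2+APAP mice received 300 µg/kg of dmPGE2, a stabilised form of prostaglandin E2, and 1 h later the same APAP dose. Livers were taken 6 h after APAP. No group received dmPGE2 without APAP, and no vehicle for dmPGE2 is named, so dmPGE2 could be compared only in the presence of APAP. The table's columns for 1 group carry a prefix that the labels do not use, and they were taken as Control because it was the remaining group. The labels do not say that each library is a separate animal, and p-values therefore reflect variation among the libraries, part or all of which may be technical.

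A miRNA is cut from a hairpin precursor, loaded into an Argonaute protein and guided to messenger RNAs by its seed, the short stretch near its 5′ end that pairs with the target. Each of the 4 miRNAs is encoded inside a gene of metabolism. miR-33 is made from an intron of Srebf2, the gene of a transcription factor that switches on cholesterol synthesis, and it represses the cholesterol exporter ABCA1 and genes of fatty acid oxidation. miR-378a is made from an intron of Ppargc1b, which encodes the coactivator PGC-1β of mitochondrial genes, and both of its strands have been tied to mitochondrial metabolism. miR-103 and miR-107 lie in the pantothenate kinase genes, whose enzymes begin coenzyme A synthesis. In mice both miRNAs lower insulin sensitivity, and caveolin-1 is a target.

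The mature sequences are shown 5′ to 3′ with the seed, bases 2 to 8, in capitals, because the seed sets which targets a strand can share with another. They are from RefSeq on GRCm38.p6, and 4 of the 6 members are printed.
miR-33-5p: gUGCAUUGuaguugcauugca
miR-33-3p: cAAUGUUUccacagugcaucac
miR-103-3p: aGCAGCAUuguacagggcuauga
miR-107-3p: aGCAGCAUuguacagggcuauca
The strands of miR-33 carry unlike seeds, whereas miR-103-3p and miR-107-3p carry the same one. The latter pair are identical at 22 of 23 positions. Counted from the 5′ end of miR-103-3p, the difference is G22C. Their first 21 bases are the same, so a read that ends before position 22 fits both rows, and how the authors assigned such reads is not given in the sources used here.

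miR-103-3p has 2 hairpins, and its reads cannot be traced to either. The hairpins are shown with the member strands in capitals, to place each strand in its precursor.
Mir33: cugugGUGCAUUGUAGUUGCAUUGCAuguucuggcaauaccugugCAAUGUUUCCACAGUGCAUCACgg
Mir103-1: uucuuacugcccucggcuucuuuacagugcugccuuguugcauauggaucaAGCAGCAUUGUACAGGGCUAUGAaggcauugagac
Mir103-2: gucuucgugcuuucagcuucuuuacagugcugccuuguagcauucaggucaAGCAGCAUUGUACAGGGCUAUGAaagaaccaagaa
Mir107: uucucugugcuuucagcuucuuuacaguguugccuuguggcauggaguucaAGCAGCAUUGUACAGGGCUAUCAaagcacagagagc
Mir33 lies at chr15:82198122-82198190 on the plus strand, within the span of Srebf2. Mir103-1 lies at chr11:35782396-35782481 on the plus strand within Pank3, and Mir103-2 at chr2:131288052-131288137 on the plus strand within Pank2. Mir107 lies at chr19:34820687-34820773 on the minus strand within Pank1. All 4 positions are on GRCm38.p6.

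Library totals ran from 1038799 to 10483460 reads, with dmPGE2+APAP replicate 2 the shallowest and APAP replicate 3 next at 3523998. Levels are given as CPM, reads scaled to a common library size after TMM normalisation, a library scaling that aligns the bulk of miRNAs between libraries. In the shallowest library 1 CPM corresponds to 1.17 reads. A miRNA read stands for a whole molecule, so levels were set beside each other without a length term, although ligation into the library can favour some sequences. The hepatocyte markers were present in every library, with a summed level between 241637 and 417770 CPM over 5 of 5 rows. In bulk liver, fewer cells of a type and less RNA per cell cannot be told apart.

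The members covered a wide range of levels. Mean levels over all 9 libraries (± SD) were 7312 ± 868 CPM for miR-378a-3p, 615 ± 156 for miR-103-3p, 167 ± 31.2 for miR-107-3p, 87.7 ± 8.96 for miR-378a-5p, 1.34 ± 0.668 for miR-33-5p and 1.07 ± 0.643 for miR-33-3p. miR-378a-3p ranked 15 of 946 rows by mean level, and miR-33-5p ranked 349. The order from miR-378a-3p down to miR-33-5p was the same in 9 of 9 libraries. The strands of miR-33 could not be ordered, since miR-33-5p was the higher in 5 of 9 libraries and equal to miR-33-3p in APAP replicate 2, at 7 reads each.

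**Figure D1:**
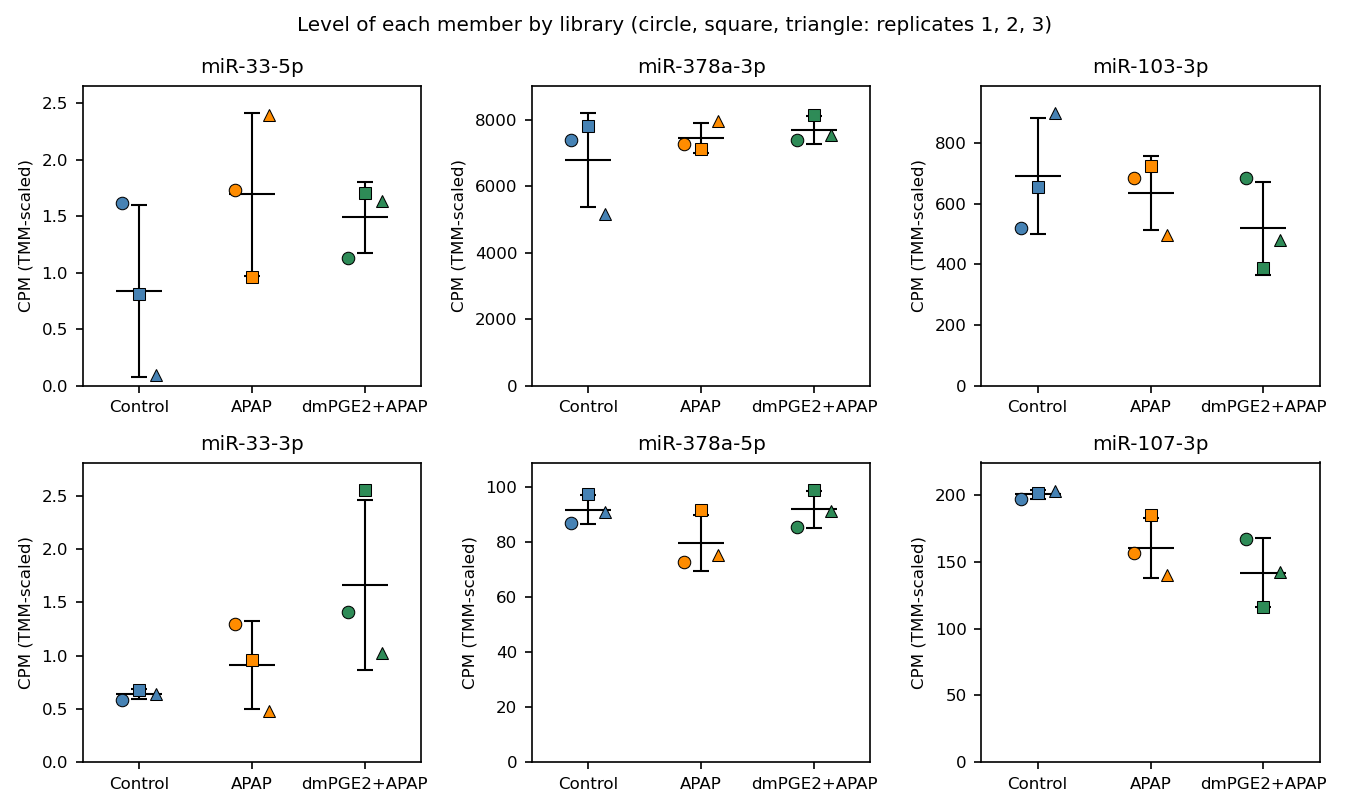
Level of each member in each library, in TMM-scaled CPM on a linear axis from 0. Symbols are libraries, long bars group means and error bars SD (n = 3). miR-107-3p is the member whose Control libraries sit together above all others, and miR-33 levels rest on few reads.

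miR-33 was near the limit of detection in these livers. miR-33-5p, the strand best known for repressing ABCA1, was counted 11, 6 and 1 times in Control replicates 1, 2 and 3. The APAP libraries held 12, 7 and 10 of its reads and the dmPGE2+APAP libraries 8, 2 and 8. The groups overlapped, and Control replicate 3 was the lowest library although it was the deepest. The Control mean was 0.840 ± 0.761 CPM, the APAP mean 1.69 ± 0.717 and the dmPGE2+APAP mean 1.49 ± 0.313 (SD, n = 3). The log2 fold change was 1.06 (SE 0.70) for APAP against Control, with a 95% interval of -0.43 to 2.55 and a Benjamini-Hochberg adjusted p of 0.612 in edgeR's quasi-likelihood fit of all tested miRNAs. Without Control replicate 3 it was 0.44 (edgeR adjusted p 0.834), and leaving out any library in turn gave 0.44 to 2.005, the latter without Control replicate 1. For dmPGE2+APAP against APAP the log2 fold change was -0.21 (SE 0.72, 95% interval -1.75 to 1.33, edgeR adjusted p 0.983). Against Control, dmPGE2+APAP gave 0.85 (SE 0.76, -0.77 to 2.48, edgeR adjusted p 0.675).

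miR-33-3p, the opposite strand of the same hairpin, had 4, 5 and 7 reads in the Control libraries, 9, 7 and 2 with APAP and 10, 3 and 5 with dmPGE2 before APAP. It did not pass the filter on low counts and was not tested. In CPM all 3 dmPGE2+APAP libraries lay above all 3 Control libraries, as did 6.11% of the 360 tested miRNAs, while APAP overlapped both. Pooled over the Control libraries it stood at 0.639 CPM (exact 95% Poisson interval 0.365 to 1.04). The pooled level was 0.977 CPM with APAP (0.579 to 1.54) and 1.37 with dmPGE2 before APAP (0.812 to 2.17). The intervals overlap and cover counting error only. With no filter on low counts, edgeR's log2 fold change was 1.07 (SE 0.74, 95% interval -0.39 to 2.53, adjusted p 0.755) for dmPGE2+APAP against Control, and its adjusted p in the other comparisons was 0.843 and 0.913. The ratio of miR-33-5p to miR-33-3p reads ran from 0.143 in Control replicate 3 to 5.0 in APAP replicate 3, and that spread is larger than any difference between groups (exact two-sided permutation p 0.3 to 0.9 for the 3 comparisons, adjusted 0.643 to 0.9). No ratio could have passed, since 3 against 3 libraries cannot give a p below 0.1.

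miR-378a-3p, the main strand of its hairpin, was the most abundant member. It had 7382, 7803 and 5177 CPM in Control replicates 1, 2 and 3. APAP libraries had 7278, 7134 and 7955 CPM, and dmPGE2+APAP libraries 7385, 8160 and 7531. All but Control replicate 3 lay within a narrow band, and the groups overlapped. The log2 fold change was 0.14 (SE 0.19, 95% interval -0.27 to 0.54) for APAP against Control, 0.05 (SE 0.19, -0.36 to 0.45) for dmPGE2+APAP against APAP and 0.18 (SE 0.19, -0.22 to 0.58) for dmPGE2+APAP against Control. None passed, with edgeR adjusted p of 0.848, 0.989 and 0.696. Without Control replicate 3 the first of these became -0.0032 (edgeR adjusted p 0.993) and the last 0.05 (0.920).

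miR-378a-5p, the minor strand, varied least among the members over the 9 libraries. It had 86.9, 97.4 and 90.7 CPM in the Control libraries. APAP libraries had 72.7, 91.4 and 75.1 CPM, and dmPGE2+APAP libraries 85.4, 98.8 and 91.0. APAP held the lowest values, but its replicate 2 lay within the range of both other groups. The log2 fold change was -0.20 (SE 0.19) for APAP against Control, 0.20 (SE 0.20) for dmPGE2+APAP against APAP and -0.0035 (SE 0.19) for dmPGE2+APAP against Control. None passed, at edgeR adjusted p of 0.747, 0.911 and 0.994. The first changed sign to 0.05 with library totals in place of TMM.

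The strand ratio needs no library scaling, since both strands are counted in the same library. The miR-378a-3p reads outnumbered those of miR-378a-5p by 85.0, 80.1 and 57.1 to 1 in the Control libraries. The ratios were 100.1, 78.1 and 105.9 to 1 with APAP and 86.5, 82.6 and 82.8 to 1 with dmPGE2 before APAP. The 3p strand thus made up 98.6% ± 0.305 of the arm reads in Control (SD, n = 3). That share was 98.9% ± 0.177 with APAP and 98.8% ± 0.0301 with dmPGE2 before APAP. Differences in the mean log2 ratio were 0.36, -0.17 and 0.20 for APAP against Control, dmPGE2+APAP against APAP and dmPGE2+APAP against Control. Exact two-sided permutation tests gave p of 0.3, 0.4 and 0.4, each 0.643 after adjustment over the 9 ratio comparisons. Without Control replicate 3 the differences from Control were 0.19 with APAP and 0.02 with dmPGE2 before APAP. The difference of dmPGE2+APAP from APAP was -0.08 without APAP replicate 3 and -0.30 without APAP replicate 2.

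Related rows of the miR-378 family did not keep a fixed proportion to miR-378a-3p. miR-378c, from a separate hairpin on chromosome 14 whose mature strand closely resembles miR-378a-3p, was counted at 12.8%, 12.1% and 13.0% of the miR-378a-3p reads in Control. The proportions were 11.9%, 13.9% and 18.9% in APAP replicates 1, 2 and 3, and 11.2%, 24.9% and 17.6% in dmPGE2+APAP. The 3 highest values belong to the 3 libraries with the fewest reads, which had 3523998, 1038799 and 4733882 in that order. Its paralog miR-378b, from a hairpin on chromosome 11, was highest against miR-378a-3p in the same libraries, at 0.180%, 0.251% and 0.214% against 0.0974% to 0.119% in the other 6. This comparison was added after the values were seen and has no test.

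For dmPGE2+APAP against Control the log2 fold change was 0.70 (SE 0.29) for miR-378c and 0.95 (SE 0.38) for miR-378b, and neither passed (edgeR adjusted p 0.336 each). Depth moved with these values, and its part in them was not tested. The counts cannot show how many miR-378c reads came from miR-378a molecules. With the rows of miR-378a-3p, miR-378b and miR-378c summed, the log2 fold changes were 0.18, 0.09 and 0.27 in the order used above, with edgeR adjusted p between 0.631 and 0.946. The row of miR-378d held 2 reads in all libraries together.

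**Figure D2:**
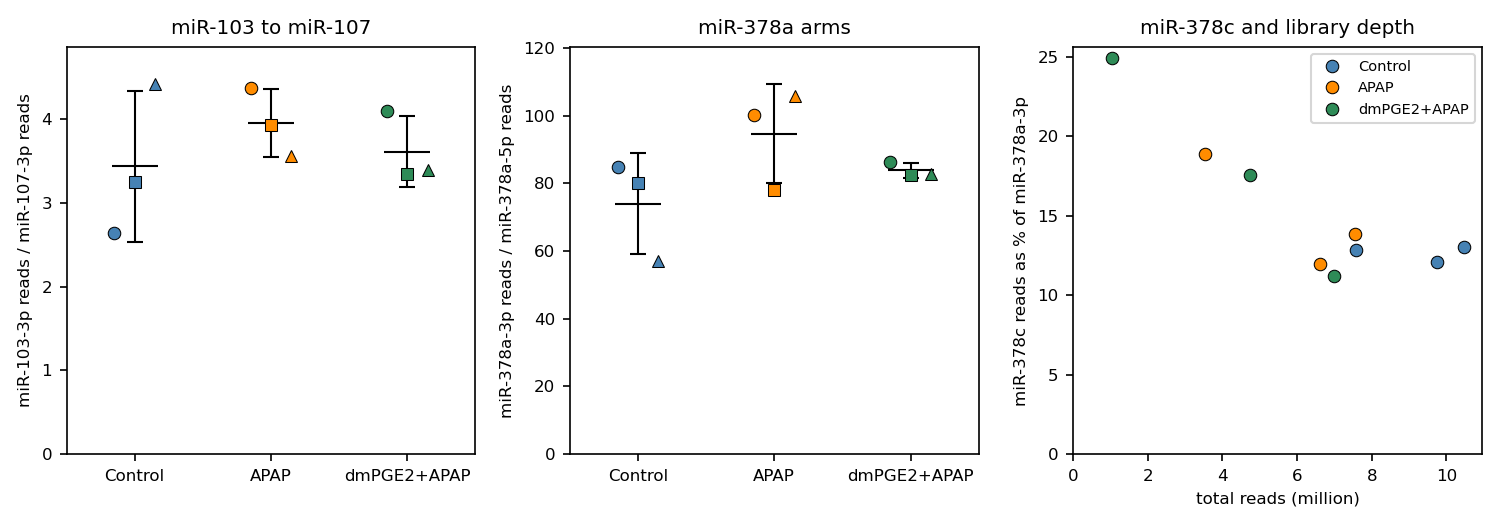
Left and middle, reads of miR-103-3p over miR-107-3p and of miR-378a-3p over miR-378a-5p in each library (symbols are libraries, long bars group means, error bars SD, n = 3). Right, miR-378c reads as a percent of miR-378a-3p reads against total reads per library. The 3 libraries with the fewest reads stand between 17.6% and 24.9%, and the other 6 between 11.2% and 13.9%.

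miR-103-3p varied widely within each group. Its level was 520.3, 655 and 898 CPM in Control replicates 1, 2 and 3. APAP libraries had 684, 725 and 498 CPM, and dmPGE2+APAP libraries 686, 388 and 482. The groups overlapped, with the highest library in Control and the lowest in dmPGE2+APAP, the shallowest of all. The log2 fold change was -0.12 (SE 0.25, 95% interval -0.66 to 0.42) for APAP against Control, -0.29 (SE 0.25, -0.83 to 0.25) for dmPGE2+APAP against APAP and -0.41 (SE 0.25, -0.95 to 0.13) for dmPGE2+APAP against Control. None passed, with edgeR adjusted p of 0.914, 0.896 and 0.521. The APAP difference from Control had no settled direction, being 0.14 without Control replicate 3, 0.04 without APAP replicate 3 and 0.09 with library totals. Leaving out 1 library gave -0.54 (without dmPGE2+APAP replicate 1) to -0.08 (without dmPGE2+APAP replicate 2) for dmPGE2+APAP against APAP. It gave -0.65 (without dmPGE2+APAP replicate 1) to -0.14 (without Control replicate 3) for dmPGE2+APAP against Control, with -0.18 without dmPGE2+APAP replicate 2.

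miR-107-3p, which shares the seed of miR-103-3p, was lower in the means of both APAP groups than in Control. Its level was 197, 201 and 203 CPM in Control, the tightest group of any member by coefficient of variation of TMM-scaled CPM (1.64%). As a percent of library reads the Control libraries were less even, at 0.0180 ± 0.0029 (SD, n = 3). APAP libraries had 156, 185 and 139.7 CPM, and dmPGE2+APAP libraries 167, 116 and 142. All 6 libraries that received APAP lay below all 3 Control libraries, while APAP and dmPGE2+APAP overlapped. The means were 200.4 ± 3.30, 160.2 ± 22.7 and 142 ± 25.7 CPM (SD, n = 3).

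The log2 fold change of miR-107-3p was -0.32 (SE 0.20, 95% interval -0.75 to 0.11) for APAP against Control, -0.17 (SE 0.20, -0.60 to 0.26) for dmPGE2+APAP against APAP and -0.49 (SE 0.20, -0.92 to -0.06) for dmPGE2+APAP against Control. None passed over all miRNAs, with edgeR adjusted p of 0.584, 0.913 and 0.336. The unadjusted p of the last was 0.0281, where 10.6% of the 360 tested miRNAs had an unadjusted p under 0.05. Groups that do not overlap were common too. Among the tested miRNAs, 8.06% lay wholly below Control in APAP and 8.61% in dmPGE2+APAP, beside 1 of the 5 tested members in each. Without dmPGE2+APAP replicate 2, the shallowest library, the log2 fold change was -0.31 (edgeR adjusted p 0.842) against Control and -0.01 (0.989) against APAP. Leaving out each library in turn gave -0.61 to -0.31, -0.30 to -0.01 and, for APAP against Control, -0.43 (without APAP replicate 2) to -0.21.

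The separation of miR-107-3p from Control depended on the scaling. As a percent of all library reads it stood at 0.0177, 0.0152 and 0.0210 in the Control libraries. The APAP libraries had 0.0164, 0.0178 and 0.0166, the dmPGE2+APAP libraries 0.0169, 0.0131 and 0.0147, and these groups overlap. With library totals its log2 fold change was -0.08 for APAP against Control and -0.27 for dmPGE2+APAP against Control, with edgeR adjusted p of 0.898 and 0.639. Library totals moved the median of all tested miRNAs by 0.25 and 0.22 on the log2 scale in these comparisons.

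miR-378a-3p showed the converse. Its share of reads was 0.663%, 0.590% and 0.536% in the Control libraries. It was 0.766%, 0.689% and 0.944% with APAP and 0.747%, 0.922% and 0.778% with dmPGE2 before APAP. By share, all 6 libraries that received APAP lay above all 3 Control libraries, which TMM-scaled levels did not show. With library totals its log2 fold change was 0.42 (SE 0.19) for APAP against Control and 0.45 (SE 0.19) for dmPGE2+APAP against Control, and neither passed (edgeR adjusted p 0.365 and 0.302). By share, 16.4% of the tested miRNAs lay wholly above Control in APAP and 15% in dmPGE2+APAP. Neither of these scalings separated both members from Control in the same comparison.

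**Figure D3:**
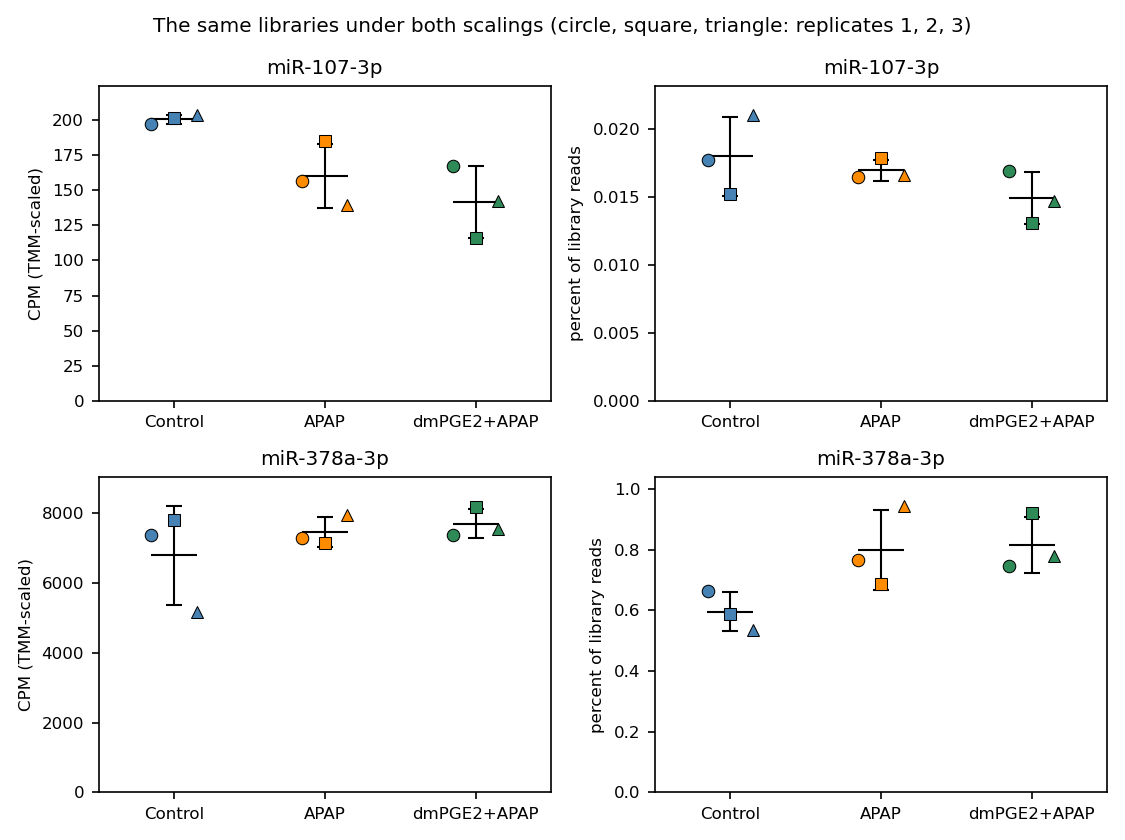
miR-107-3p (top) and miR-378a-3p (bottom) in the same 9 libraries, as TMM-scaled CPM (left) and as a percent of library reads (right), on axes from 0. Symbols are libraries, long bars group means and error bars SD (n = 3). miR-107-3p is apart from Control only on the left, miR-378a-3p only on the right.

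The balance of miR-103-3p to miR-107-3p, which no scaling can alter, was 2.64, 3.25 and 4.42 to 1 in the Control libraries. It was 4.37, 3.93 and 3.57 to 1 with APAP and 4.10, 3.35 and 3.39 to 1 with dmPGE2 before APAP. Control held both the lowest and the highest library. Differences in the mean log2 ratio were 0.23 for APAP against Control, -0.13 for dmPGE2+APAP against APAP and 0.09 for dmPGE2+APAP against Control. Exact two-sided permutation tests gave p of 0.5, 0.3 and 0.8, and adjusted values of 0.643, 0.643 and 0.9. With both rows summed, the log2 fold changes were -0.13, -0.27 and -0.40 in that order, with edgeR adjusted p from 0.496 to 0.893. The sum is free of how shared reads were split only if each was counted once, which is not stated. The passenger strand miR-107-5p had 2 reads in all libraries together.

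Over the 5 tested members, edgeR called 0 in any comparison, and so did DESeq2 and limma-voom. At an unadjusted p under 0.05 the count was 1, which is miR-107-3p in dmPGE2+APAP against Control. The edgeR test called 0.833% of all tested miRNAs for APAP against Control, 0.278% for dmPGE2+APAP against APAP and 0.278% for dmPGE2+APAP against Control. The median log2 fold change of the tested members was -0.12, -0.17 and -0.0035 in that order, beside medians of -0.05, 0.00037 and -0.03 over all 360 tested miRNAs. In each comparison 2 of 5 members had values above 0. Intervals for miR-378a-3p and miR-378a-5p left room for changes of up to about 0.6 on the log2 scale. Those for miR-103-3p and miR-107-3p reached -0.95 and -0.92 for dmPGE2+APAP against Control. Intervals for miR-33-5p reached 2.55 for APAP against Control, -1.75 for dmPGE2+APAP against APAP and 2.48 for dmPGE2+APAP against Control. The 3 comparisons share libraries in pairs, so a member's values in them are not independent.

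**Figure D4:**
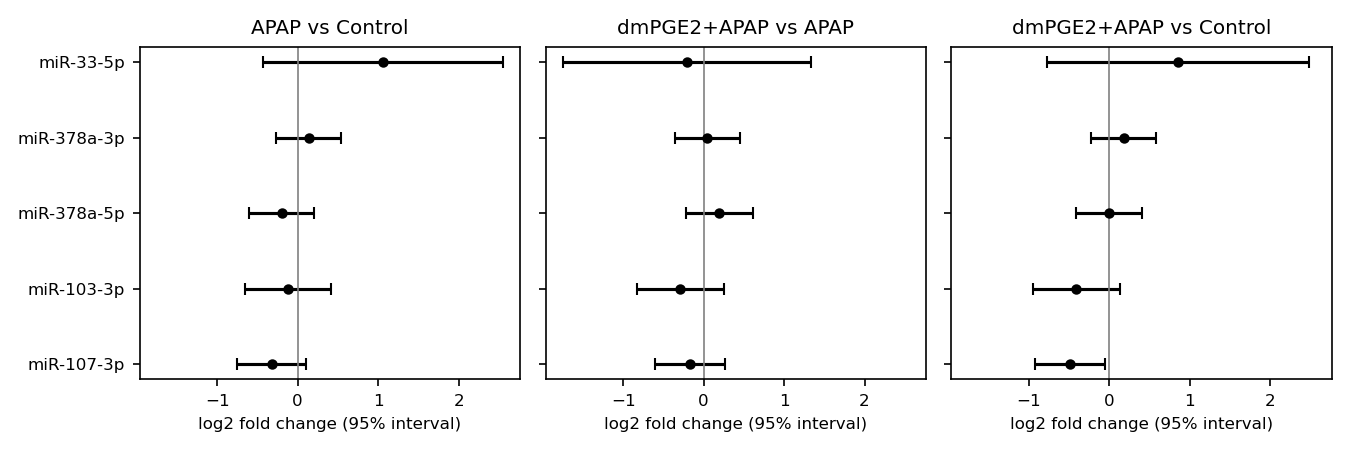
Log2 fold change of each tested member with its 95% interval from edgeR's quasi-likelihood fit, in the 3 comparisons. All intervals hold 0 except that of miR-107-3p in dmPGE2+APAP against Control (-0.92 to -0.06), which did not pass after adjustment, and miR-33-5p has the widest.

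Of the miRNAs in 3 other lists of metabolism, edgeR called 0. Of a list tied to lipid and cholesterol handling, 17 of 19 rows were tested, and 0 were higher and 0 lower in each comparison, with 4, 2 and 3 at an unadjusted p under 0.05. Over all 360 tested miRNAs, 9.72%, 6.39% and 10.6% had such a p. limma-voom also called 0 of them, whereas DESeq2 called 2 higher for APAP against Control, where it called 4.39% of the 296 miRNAs to which it gave an adjusted p. These were miR-128-3p (log2 fold change 0.82, DESeq2 adjusted p 0.0258) and miR-223-3p (1.05, 0.0409), the latter also a myeloid marker, and both are named because DESeq2 called them, after their values were seen. Its medians were 0.03, -0.07 and 0.01. The most abundant, miR-122-5p, the main hepatocyte miRNA, which sustains cholesterol synthesis, had a log2 fold change of -0.34 (SE 0.23) for APAP against Control. miR-148a-3p, a repressor of the LDL receptor, had -0.41 (SE 0.21) there and -0.49 (SE 0.21) for dmPGE2+APAP against Control (edgeR adjusted p 0.519 and 0.348).

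Of the insulin and glucose list, 17 of 17 rows were tested and 0 passed in either direction in the 3 comparisons, with medians of -0.0023, -0.0029 and -0.02 and 0, 0 and 2 at an unadjusted p under 0.05. miR-143-3p, which impairs insulin signalling in mouse liver, had a log2 fold change of -0.21 (SE 0.24) and miR-26a-5p, which improves it, of -0.22 (SE 0.19) for APAP against Control. Of the mitochondrial and thermogenic list, 11 of 14 rows were tested and 0 passed in either direction, with 2, 0 and 4 at an unadjusted p under 0.05, beside the shares over all miRNAs given above. DESeq2 and limma-voom called 0 of either list. Its medians were -0.35, -0.14 and -0.16, and 9 of 11 values lay below 0 for dmPGE2+APAP against Control, as did 53.9% of all tested miRNAs. The list holds 2 tested rows that are also muscle markers, miR-499-5p (log2 fold change -3.28, SE 0.96) and miR-133a-3p (-0.72, SE 0.40), named after their values were seen. Without them, 7 of 9 values lay below 0, 3 had an unadjusted p under 0.05, and the medians were -0.06, -0.14 and -0.09. The summed level of 5 of 5 muscle miRNAs ran from 483 to 2702 CPM in the Control libraries, 315 to 904 with APAP and 342 to 721 with dmPGE2 before APAP, and its part in the list's values was not tested. miR-27b-3p, a repressor of brown fat genes, stood against that direction at 0.48 (SE 0.22, edgeR adjusted p 0.429), and miR-30c-5p, which promotes brown fat formation, stood at -0.51 (SE 0.24, edgeR adjusted p 0.465).

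Among blood-cell markers, the red-cell sum differed in range between the groups, whereas the ranges of the myeloid sum and the lymphoid marker overlapped. The summed level of 4 of 4 red-cell miRNAs ran from 431 to 543 CPM in the Control libraries, 731 to 1398 with APAP and 352 to 379 with dmPGE2 before APAP. Its largest row, miR-451a, had means of 409, 800 and 295 CPM in that order. In dmPGE2+APAP only miR-451a lay wholly below Control (log2 fold change -0.47, edgeR adjusted p 0.481), as did 8.61% of the tested miRNAs. The other red-cell rows overlapped Control there. How often sums of other rows separate in this way was not computed. Of the red-cell miRNAs, edgeR called miR-451a lower for dmPGE2+APAP against APAP (log2 fold change -1.44, adjusted p 0.00993). DESeq2 called 3 of the 4 lower there, miR-451a, miR-486a-5p and miR-144-5p, beside 2.23% of all miRNAs. For APAP against Control it called miR-451a and miR-486a-5p higher, beside 4.39% of the miRNAs to which it gave an adjusted p. In that comparison edgeR called neither (adjusted p 0.0571 each), and limma-voom called 0 of the 4. The summed level of 4 of 4 myeloid miRNAs was 124 to 233 CPM in Control, 177 to 319 with APAP and 153 to 238 with dmPGE2 before APAP. Its largest row, miR-142a-5p, had means of 150, 200 and 170 CPM in that order. By row, 4 of 4 had log2 fold changes above 0 for APAP against Control (median 0.59). All 4 lay below 0 for dmPGE2+APAP against APAP (median -0.75), and 3 lay above 0 for dmPGE2+APAP against Control. In these comparisons edgeR called 0 of them. The lymphoid marker miR-150-5p ran from 1.91 to 24.5 CPM in Control, 13.9 to 20.0 with APAP and 17.0 to 24.7 with dmPGE2 before APAP. No marker was at 0 in all libraries, and the part of these cells in the members' values was not tested.

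The rows most like each member in pattern were found among miRNAs of at least 10 CPM by Pearson's r of log2 CPM over the 9 libraries, which share depth and scaling. They are the highest of 205 or 206 rows compared per member, a choice that by itself raises r, and have no test. The rows were let-7f-5p (r = 0.96) and miR-30a-5p (0.94) for miR-107-3p, miR-374b-5p and miR-374c-3p (0.93 each) for miR-103-3p, and miR-872-5p and let-7a-1-3p (0.93 each) for miR-378a-3p. The mean levels of miR-374b-5p and miR-374c-3p were 75.9 and 75.7 CPM. Whether these rows count the same reads was not tested, so they may be 1 match. miR-378a-5p had the weakest, with miR-181b-5p at 0.79 and miR-676-5p at 0.77. For miR-33-5p, whose level rests on few reads, they were miR-215-5p (0.95) and miR-126a-5p (0.90). Between the 5 tested members, r ran from -0.77 for miR-33-5p with miR-103-3p to 0.88 for miR-33-5p with miR-378a-3p. It was -0.75 for miR-378a-3p with miR-103-3p, 0.77 for miR-103-3p with miR-107-3p and -0.04 for the strands of miR-378a. Control replicate 3 was the lowest library for miR-33-5p (0.0921 CPM) and miR-378a-3p (5177 CPM) and the highest for miR-103-3p (898 CPM). These r values were not computed without it, so their dependence on that library was not tested.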

How the data were processed

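Read counts per mature miRNA were deposited by the authors with TPM values, per the file headers. Each deposited TPM value is a count over its library total, with no length term, and served 1 alternative. Per the submitters' processing notes, Bowtie and the mm10 build were used. Its version, the counting tool, the annotation and strandedness are not stated in the sources used here. Counts of all 946 rows entered edgeR 4.0.16 in R 4.3.3 (TMM, filterByExpr with minimum count 10 and minimum total 15, robust quasi-likelihood, 1 fit of 9 libraries). The 360 rows that passed were adjusted by Benjamini-Hochberg at 0.05. SE and 95% intervals derive from the F statistic. Strand and paralog ratios used log2 of reads plus 1 and exact permutation tests (scipy 1.17.1). Alternatives included DESeq2 1.42.0 and limma 3.58.1. Scripts were tested on simulated counts. No 2 libraries agreed within sampling noise.

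Named miRNAs were the 6 members, related rows, the 2 rows most like each tested member, and up to 2 examples per list (called, otherwise most abundant), with exceptions marked in the text. Members and lists were chosen with earlier results of these data known. Same-numbered libraries did not deviate together (r from -0.25 to 0.17), so replicate numbers were not used as pairs. PCR copies are not independent molecules, so Poisson intervals cover counting error only.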

Additional observations from a re-analysis of the deposited data

How the results depend on the processing

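Of the 5 tested members, none passed in any alternative that gave it an adjusted p. miR-33-5p had none with a mean of at least 10 CPM, nor with DESeq2 for APAP against Control, and miR-33-3p, not among the 5, did not pass with no filter. For APAP against Control the main test called 3 miRNAs higher and 0 lower. DESeq2 called 11 higher and 2 lower, library totals 8 higher, median-of-ratios scaling 7, no filter 9, a mean of at least 10 CPM 0, fitting only the 2 groups 7, limma on deposited TPM 8, the replicate block 0, and leaving out a library 0 to 9. For dmPGE2+APAP against APAP (0 higher, 1 lower) DESeq2 called 3 higher and 5 lower, no filter 3 and 6, fitting only the 2 groups 0 lower, the replicate block 1 higher, and leaving out a library 0 to 3 higher and 0 to 4 lower. For dmPGE2+APAP against Control (1 higher, 0 lower) DESeq2, library totals and median-of-ratios scaling each called 2 higher, limma-voom and a mean of at least 10 CPM 0, no filter 1 lower, and leaving out a library 1 to 2 higher. At an unadjusted p under 0.05 the main test had 12 lower, 9 higher and 18 lower where its count was 0. Without the 2 shallowest libraries together, chosen after seeing the data, 0 were higher in either comparison with Control.

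Directions turned for several values that never passed, and the cause was not tested. For APAP against Control, miR-378a-5p became 0.047 with library totals and 0.051 with deposited TPM, and miR-103-3p became 0.088 and 0.16 and, without the 2 shallowest libraries, 0.041. Leaving out a library gave -0.26 to 0.14 for miR-103-3p and -0.0032 to 0.27 for miR-378a-3p. For dmPGE2+APAP against APAP, miR-33-5p ranged from -0.50 to 0.12 and was 0.063 without the 2 shallowest libraries. For dmPGE2+APAP against Control, miR-378a-5p (-0.0035) became 0.035 with DESeq2, 0.24 with library totals, 0.037 with median-of-ratios scaling, 0.024 at a mean of at least 10 CPM, 0.024 with only the 2 groups, 0.25 with deposited TPM, 0.00063 with the replicate block and 0.0042 without the 2 shallowest libraries, and 0.011 to 0.097 with a library left out. With a library left out, the log2 ratio difference for dmPGE2+APAP against Control ran from -0.78 to 0.85 for the miR-33 strands and from -0.079 to 0.29 for miR-103 to miR-107. The replicate block changed no other call. A strand ratio with a pseudocount of 0.5 kept its direction. At the depths here miR-33 rests on 1 to 12 reads per library.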
